A study of Homo sapiens with 6 samples.

Results

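The replication-dependent histone genes are the clustered, mostly intronless genes whose products package newly copied DNA. They were taken as every row of the count table whose Ensembl identifier maps to a protein-coding gene on chromosome 1 or 6 with a symbol starting H2AC, H2BC, H3C or H4C, or one of H1-1 to H1-6. Of 60612 identifiers, 66 met this rule, with 55 on chromosome 6 and 11 on chromosome 1. They are 6 H1, 15 H2A, 18 H2B, 13 H3 and 14 H4 genes. H4C16 carries a matching symbol but lies on chromosome 12 and was left out, and H2AC18 and H2AC19 were not analysed here.

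RNA was measured by RNA sequencing in U937, an established human myeloid line labelled as acute myeloid leukemia and as wild type (WT). All cells were held in RPMI-1640 with no serum added and were exposed for 36 h either to 1 µM of B2, a compound known here only by that name, or to the vehicle DMSO. Each group has 3 libraries with replicate numbers 1 to 3, and 1 cell line stands behind all 6. The question the design poses is how B2 alters gene expression in these cells.

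Core histones H2A, H2B, H3 and H4 form the nucleosome, and the linker histone H1 binds the DNA that enters and leaves it. Messages of the clustered genes usually end without a poly(A) tail, in a short RNA hairpin that stem-loop binding protein (SLBP) holds, and they accumulate while DNA is copied. Some of these genes can also give longer, polyadenylated messages that run past the hairpin, which are known from cells that have left the cycle. Library preparations that select poly(A) tails recover the hairpin-ended form poorly, and the kind of preparation used here is not stated in the labels.

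The hairpin was found, by a search for its known consensus, in the annotated transcripts of 27 members and is shown because it is the element that ends the usual histone message. It has 16 bases, written as DNA on the coding strand, with the loop in capitals. It took 5 forms, the first of which occurred in 15 members, among them H2AC6 and H2BC21. The example positions are on GRCh38.
H2AC6 at chr6:26124669-26124684, plus strand: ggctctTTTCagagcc
H2BC21 at chr1:149886188-149886203, minus strand: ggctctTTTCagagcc
H2BC5 at chr6:26158587-26158602, plus strand, a form in 4 members: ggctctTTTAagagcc
H4C8 at chr6:26285131-26285146, minus strand, a form in 4 members, all of them H4 genes: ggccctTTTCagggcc
H4C9 at chr6:27139654-27139669, plus strand, a form in 3 members, all of them H4 genes: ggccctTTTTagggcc
H2AC11 at chr6:27133515-27133530, plus strand, the single member with this form: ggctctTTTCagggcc
The hairpin began 22 to 56 bases after the stop codon. In 32 of the other members the annotated transcript stops at the coding region, so none could be looked for, and H3C2 and H3C3 have no model in that annotation. No match in the remaining members says only that these letters were not in their annotated transcripts.

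Promoters are shown for the 2 members that passed a test between libraries, H2BC12 and H2AC6, and for H1-2, which drew the second most reads and did not. Each is the 250 bases before the RefSeq start (GRCh38.p14), 5′ to 3′ on the gene's strand, with capitals for matches on either strand to the TATA box TATAAA or the motif CCAAT or the histone octamer ATTTGCAT.
H2BC12 at chr6:27146859-27147108, minus strand: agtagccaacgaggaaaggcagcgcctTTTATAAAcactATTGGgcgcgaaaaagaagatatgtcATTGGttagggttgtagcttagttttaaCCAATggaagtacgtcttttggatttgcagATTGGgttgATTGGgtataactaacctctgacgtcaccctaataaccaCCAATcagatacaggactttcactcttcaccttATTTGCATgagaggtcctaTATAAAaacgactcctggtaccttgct
H2AC6 at chr6:26123922-26124171, plus strand: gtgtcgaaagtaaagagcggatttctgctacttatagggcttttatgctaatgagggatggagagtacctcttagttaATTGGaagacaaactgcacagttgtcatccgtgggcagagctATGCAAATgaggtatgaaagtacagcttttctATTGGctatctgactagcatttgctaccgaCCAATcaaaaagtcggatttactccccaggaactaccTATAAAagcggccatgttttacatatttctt
H1-2 at chr6:26056471-26056720, minus strand: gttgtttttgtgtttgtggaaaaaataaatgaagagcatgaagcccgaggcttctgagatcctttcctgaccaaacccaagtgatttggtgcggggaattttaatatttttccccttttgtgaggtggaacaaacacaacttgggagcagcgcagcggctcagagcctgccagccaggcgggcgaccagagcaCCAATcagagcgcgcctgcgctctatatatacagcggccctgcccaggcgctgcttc
RefSeq promoters were found for 61 of the 66 members and for 27305 genes in all. TATAAA stood in 63.9% of the member promoters and 11.1% of all promoters. CCAAT stood in 85.2% and 33.0%, including every H1, H2A, H2B and H3 promoter but 3 of 12 H4 promoters. ATTTGCAT stood in 42.6% and 1.66%, namely in 11 of 14 H2A, 14 of 18 H2B and 1 of 11 H3 promoters, and in no H1 or H4 promoter. Matches may overlap one another, each motif was counted once per promoter, and a match is a description of letters, not a bound site.

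Reads over the histone genes were few. Library totals ran from 61150740 to 78431054 counts, and the members together took 1458 to 4111 of them per library. The summed level in replicates 1, 2 and 3 of B2 was 24.5, 23.0 and 53.5 CPM (counts per 1000000 of the library total, scaled by edgeR's TMM factors). For DMSO the same sums came to 26.1, 23.2 and 52.9 CPM. Both libraries of number 3 were thus high and the other 4 lay close together, in either group. On the unscaled totals the sums were 25.2, 24.7 and 53.1 CPM for B2, against 22.5, 24.9 and 52.4 CPM for DMSO, and with mitochondrial reads left out of the total the same 2 libraries were high, at 57.9 and 56.0 CPM. By contrast, the 16 other histone genes in the table, which encode variants and replication-independent forms, drew 1871 to 2175 CPM. H2AZ1, a variant of H2A, ranged from 268 to 394 CPM and H3-3A, a replication-independent H3, from 210 to 379 CPM.

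Few members carried most of the reads. H2BC12, H1-2 and H2AC6 held 52.1% of the mean summed CPM, and the 10 most abundant members 80.0%. At the other end, 9 members had 0 counts in all 6 libraries, namely H1-1, H1-6, H2AC1, H2BC1, H3C11, H4C4, H4C6, H4C7 and H4C13. A count of 0 allows up to 0.00717 CPM over the 6 libraries together (3 counts of their scaled total), which covers counting error only. Among these, H1-6, H2AC1 and H2BC1 are known as the testis forms of their families. With these 9 included, 27 members stayed below 10 counts in every library.

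By family, the H2B, H2A and H4 sums carried the gap between libraries, and H2B had the widest. Summed H2B reached 28.6 CPM in each number 3 library and 8.16 to 10.7 CPM in the other 4, and summed H2A reached 8.88 and 10.4 CPM beside 4.43 to 5.32 CPM. Summed H4 was 7.10 and 5.45 CPM beside 2.76 to 3.96 CPM. Summed H3 was 2.01 and 1.76 CPM beside 0.677 to 1.84 CPM, which overlap, as do the H1 sums, at 6.93 and 6.70 CPM beside 4.83 to 6.95 CPM. With H2BC12 left out, all members together still gave 35.0 and 34.3 CPM in number 3 and 18.3 to 21.4 CPM in the other 4.

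**Figure D1:**
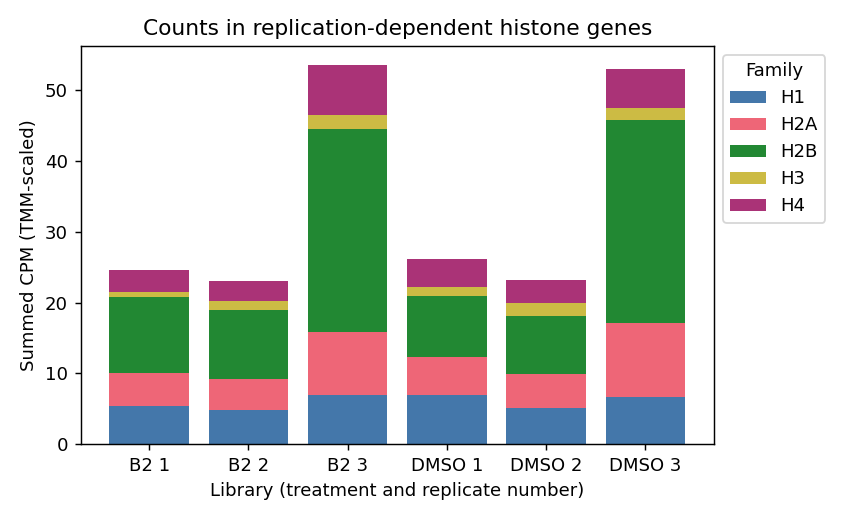
Summed CPM of the members of each histone family, stacked, for each of the 6 libraries on the horizontal axis. The bars of both number 3 libraries reach 53.5 and 52.9 CPM and the other 4 bars reach 23.0 to 26.1 CPM, with H2B the widest band of the number 3 bars.

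Facts of the whole data set bear on what follows. Across all genes the libraries of number 3 stood apart in both groups, and monocyte and macrophage markers moved with that difference. Of 12 listed markers, 10 were expressed enough to test. Both number 3 libraries exceeded the other 4 for all 10 (12.3% of all genes), and 8 passed the test between numbers (2.68% of all genes). The 12 summed to 6461 and 6744 CPM in number 3 and 1980 to 2179 CPM in the other 4, with MRC1 at 0 throughout. Of 10 listed myeloid progenitor markers, 9 were tested and 0 passed. Both number 3 libraries were above the other 4 for 1 of them (12.3% of all genes) and below for 3 (12.1%). This list summed to 3942 and 3964 CPM in number 3 and 2978 to 5250 CPM in the other 4, which overlap. The labelled myeloid identity was met by LYZ and ITGAM in every library, while of 8 lymphocyte markers CD3D, CD3E and MS4A1 were at 0 in all 6 and 4 were tested. The lymphocyte list summed to 386 and 339 CPM in number 3 and 177 to 351 CPM elsewhere, most of it NKG7, and CD2 passed between numbers, highest in number 3 (edgeR adjusted p 0.00268). Epithelial markers, 9 of 9 tested, summed to 42.7 to 56.0 CPM with B2 and 4.80 to 37.6 CPM with DMSO. Whether each replicate is a culture of its own is not stated in the labels, and every p-value here therefore reflects library-to-library spread that may be technical. In such bulk samples fewer cells that express a gene and less RNA per cell cannot be told apart.

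B2 and DMSO did not differ past the threshold for any histone gene. The test, edgeR's quasi-likelihood test with Benjamini-Hochberg adjustment over 17224 genes, ran on the 24 members with enough counts (2 H1, 5 H2A, 8 H2B, 3 H3 and 6 H4), and those left out never exceeded 29 counts in a library. It called 0 of the 24, against 0% of all genes, and at an unadjusted p below 0.05 it also gave 0 members, against 0.493% of all genes. DESeq2 and limma-voom called 0 members as well. With the replicate number as a block there were again 0 called members and 0 at an unadjusted p below 0.05, against 1.32% of all genes. No tested member had its 3 B2 values all above its 3 DMSO values, which held for 1.93% of all genes, or all below them, which held for 1.63%. Fold changes were positive for 9 members and negative for 15, with a median of -0.09 on the log2 scale beside -0.08 over all genes.

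The spread between replicates was wide for most members. Standard errors of the log2 fold changes ran from 0.31 to 1.27 with a median of 0.68, and H1-2 was the 1 member whose 95% interval lay inside a 2-fold change in either direction. With the replicate number as a block the median SE was 0.55 and 4 members had such an interval, H1-2, H2BC12, H2BC21 and H4C9. For that linker histone the 3 values were 5.11, 4.71 and 6.70 CPM under B2 against 6.29, 4.87 and 6.70 CPM under DMSO, which overlap. Its means were 5.50 ± 1.05 and 5.95 ± 0.961 CPM (SD, n = 3 each), and the log2 fold change was -0.11 (SE 0.31, interval -0.83 to 0.61). For H2BC12, a core H2B gene, the means were 9.76 ± 7.63 CPM with B2 and 9.05 ± 8.34 CPM with DMSO (SD, n = 3 each), with a log2 fold change of 0.11 (SE 0.73, interval -1.56 to 1.78). With the block it was 0.22 (SE 0.27, interval -0.36 to 0.81). The SD was nearly as large as the mean because 1 library of each group was far above the others. The smallest unadjusted p among the members, 0.268 in edgeR's test, belonged to H2AC20, an H2A gene on chromosome 1. It had 0.433, 0.643 and 0.446 CPM under B2 against 1.25, 0.631 and 0.489 CPM under DMSO, so that 1 DMSO library stood out and the groups overlapped. Its log2 fold change was -0.63 (SE 0.53), and its adjusted p was 1.00. The extremes were H2AC11 at -0.82 (SE 0.93) and H2BC5 at 0.77 (SE 0.84).

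**Figure D2:**
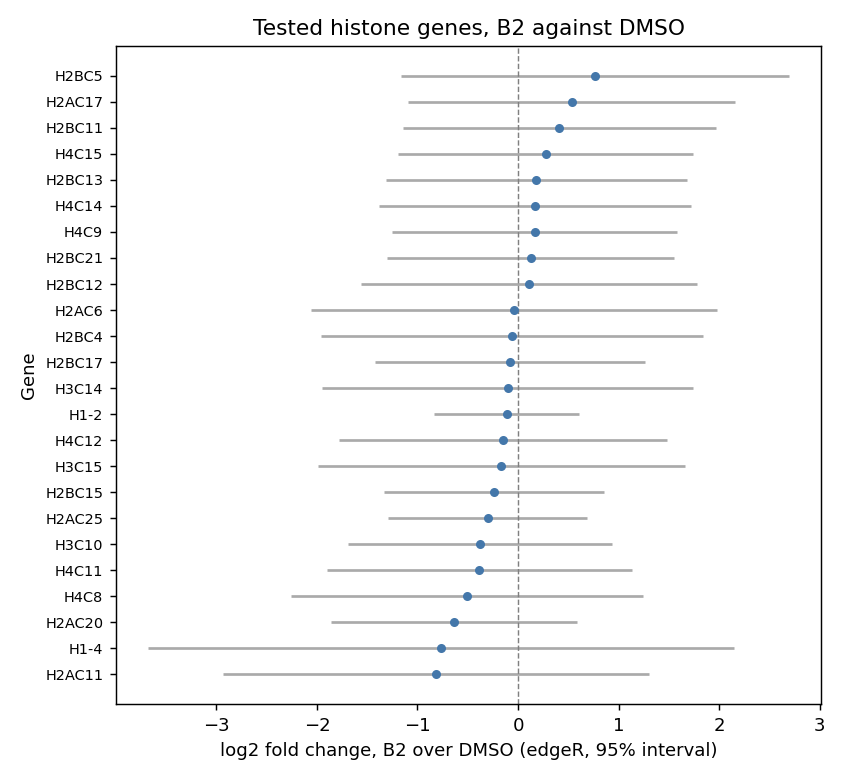
Log2 fold change of B2 over DMSO for each of the 24 tested members, with points at the edgeR estimate and bars for its 95% interval. All 24 intervals cross 0, and estimates run from -0.82 for H2AC11 to 0.77 for H2BC5.

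Histone genes differed between replicate numbers, and the 2 that passed were an H2B and an H2A gene. A test over the 3 numbers, with treatment as a term, called 2.68% of all genes and 2 of the 24 tested members, H2BC12 and H2AC6. Both were highest in number 3, as were 369 of the 461 genes called (2.14% of all genes). Both number 3 libraries lay above all other 4 for 13 of the 24 members, against 12.3% of all tested genes, and below them for 1 member, H2BC13, against 12.1%. The 13 include H3C14 with H3C15 and H4C14 with H4C15, pairs of identical coding bases that are not separate observations. Exons of these H3 and H4 genes also overlap each other on opposite strands. The median difference between number 3 and the mean of the other numbers was 0.84 on the log2 scale over the members and -0.03 over all genes. These counts cover only the members that reached the count filter, and so support nothing beyond them. The sums over all 66 members, given above, do not depend on that filter.

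Among H2B genes, H2BC12 passed (ENSG00000197903, chr6:27146418-27146798 in GENCODE 29 on GRCh38). In the B2 libraries 1 to 3 it gave 5.97, 4.76 and 18.5 CPM, and in those of DMSO 4.73, 3.76 and 18.7 CPM. The number 3 values did not overlap the other 4 and were 3.87-fold their mean, with an adjusted p of 0.00395 in edgeR's test between numbers. H2BC21, an H2B gene of the chromosome 1 cluster, had 1.38, 1.74 and 3.80 CPM under B2 against 1.00, 1.33 and 3.99 CPM under DMSO. Both number 3 values were again the highest, though the adjusted p of 0.0654 missed the threshold of 0.05. H2BC5 gave 0.515, 0.616 and 1.82 CPM under B2 against 0.197, 0.232 and 1.29 CPM under DMSO, with an adjusted p of 0.0898 in the same edgeR test. H2BC11 gave 0.704, 0.465 and 1.93 CPM, then 0.699, 0.360 and 1.26 CPM, and H2BC4 had 0.974 and 0.786 CPM in number 3 beside 0.149 to 0.358 CPM. H2BC13 went the other way, with 0.132 and 0.193 CPM in number 3 and 0.215 to 0.366 CPM elsewhere, and H2BC17 overlapped. H2BC13 and H2BC4 fall outside the rule for named genes and were picked after their values were seen.

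Among H2A genes, H2AC6 (ENSG00000180573, chr6:26124145-26139116) passed the test. Its values were 1.15, 1.35 and 5.02 CPM under B2 against 0.466, 1.65 and 5.59 CPM under DMSO, so that number 3 was 4.59-fold the mean of the others (edgeR adjusted p 0.0140). H2AC25 gave 2.13, 1.31 and 2.85 CPM under B2 against 2.74, 1.69 and 3.34 CPM under DMSO, a smaller step of 1.57-fold that did not pass. H2AC20 was not high in number 3, where it had 0.446 and 0.489 CPM beside 0.433 to 1.25 CPM in the other 4.

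Counts of called members depended on single libraries and on the scaling. Without DMSO replicate 3 neither gene passed, with adjusted p of 0.169 for H2BC12 and 0.0659 for H2AC6 in edgeR's test. The count of members called was then 0, and it was 6 without B2 replicate 1 and 4 without B2 replicate 2. With library totals in place of TMM factors it was 1, since the adjusted p of H2AC6 became 0.0998, and it was 4 with RLE factors and 5 with upper-quartile factors.

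No H4, H3 or H1 gene passed the test between numbers. H4C9 had 1.04, 0.985 and 2.95 CPM under B2 against 0.752, 1.13 and 2.54 CPM under DMSO, so both number 3 values were above the rest (edgeR adjusted p 0.105). H4C14 and H4C15 share 100% of their coding bases, so their counts cannot be assigned with certainty, and both had their highest values in number 3. For H4C14 these were 1.47 and 1.04 CPM, beside 0.358 to 0.618 CPM. H4C8 overlapped, with 0.710 and 0.425 CPM in number 3 and 0.109 to 0.645 CPM elsewhere. H4C11 and H4C12, another pair with identical coding bases, were lower on average in number 3, by 0.51 and 0.57 on the log2 scale, with overlapping values. H3C10, the H3 gene with the most reads, had 0.743 and 0.940 CPM in number 3 and 0.284 to 0.824 CPM elsewhere. In the identical pair H3C14 and H3C15, both number 3 values were above the other 4. H3C14 had 0.495 and 0.348 CPM in number 3, and H3C15 had 0.462 and 0.335 CPM. Each had 0.0542 to 0.283 CPM elsewhere. H1-2 was 1.28-fold higher in number 3, above the other 4 in both libraries by a small margin (edgeR adjusted p 0.586). H1-4, another linker histone, had 0.0660 and 0 CPM in number 3 and 0.0410 to 0.358 CPM in the others.

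**Figure D3:**
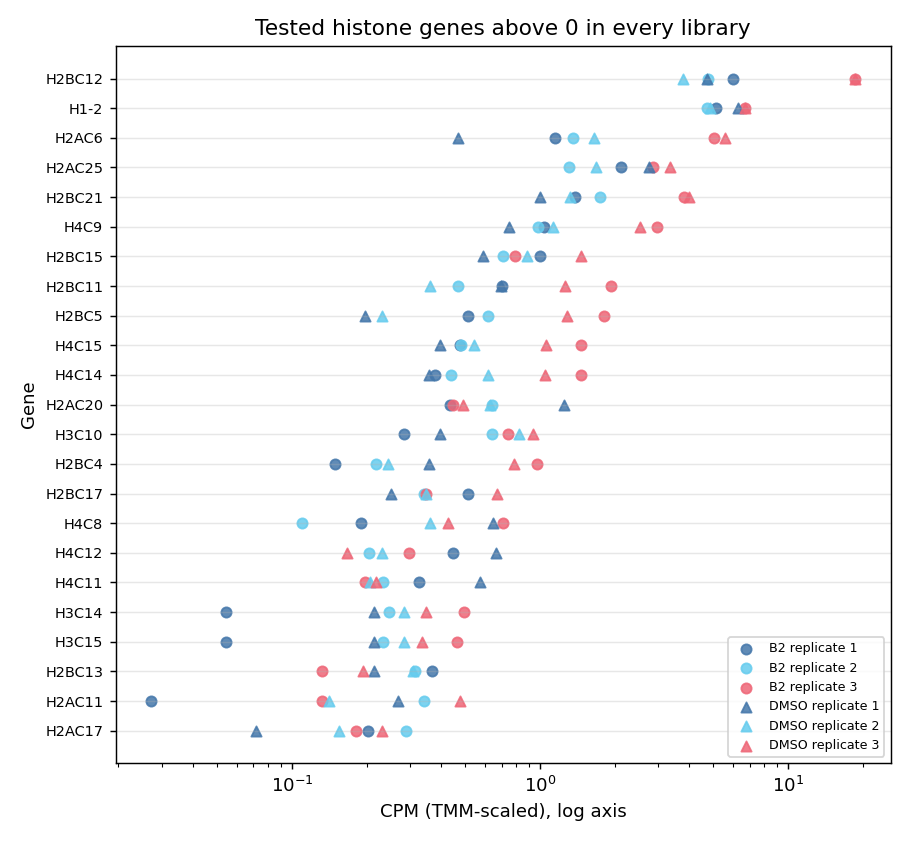
CPM on a log scale of the tested members that were above 0 in every library, with genes along one axis and 1 point per library. H2BC12 and H2AC6 show both number 3 libraries apart from the other 4, and H1-2 and H2AC20 show little or none of that gap.

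Levels of different genes can be compared only per length. Per kilobase of annotated exon, H2BC12 was first with 24.7 CPM, then H1-2 with 8.92, H2AC25 with 2.62, H2AC20 with 1.66, H2AC6 with 1.52 and H4C9 with 1.21. The first value is uncertain, because GENCODE 29 gives H2BC12 381 bases of coding region only, while RefSeq gives it a span of 8566 bases (chr6:27138293-27146858, GRCh38.p14). H4C9 lies inside that span. Other lengths differ as well: H2AC6 has 1668 bases of exon in GENCODE 29 and a RefSeq span of 519. For H2AC25 these are 895 and 510, and for H4C9 1294 and 397. The order of the genes below H1-2 therefore depends on the annotation. Neither the annotation behind the counts nor the use of strand is given in the sources used here. Without strand, reads of members whose exons overlap an opposite-strand gene cannot be told apart, which touches H3C14 with H4C14, H3C15 with H4C15, H2BC15 with H2AC15, H2BC18 with FCGR1A, H2AC21 with BOLA1 and H2BC6 with AL353759.1. Exons also overlap on the same strand, where strand does not help. This touches H2AC17 with H3C12, H2BC15 with H2AC16, and H2AC7 and H3C4 with AL031777.3.

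Annotated transcript ends divided the members in a way that the rule did not use, though the classes were set after the values were seen and get no test. In 24 members the longest GENCODE 29 transcript end runs 150 bases or more past the stop codon. Of these, 20 have a poly(A) signal (AATAAA or ATTAAA) in the last 40 bases of an annotated transcript. For H2BC4, H2BC5 and H2BC15 of this class, the transcript with the longest end is spliced and lacks the hairpin, which was found in other transcripts of these genes. The split is not clean, as some unspliced transcripts hold the hairpin too. Of these, that of H2BC5 also has a poly(A) signal, and those of H2BC4 and H2BC15 also run 150 bases or more past the stop codon. All 15 tested members of this class had a higher mean in number 3, by 0.45 to 2.30 on the log2 scale with a median of 1.36, and 11 had both number 3 values above the other 4, beside 12.3% of all tested genes. These 11 include H3C14 with H3C15 and H4C14 with H4C15, pairs of identical coding bases that are not separate observations. Summed over all 24, tested or not, the level was 25.8 and 25.2 CPM in number 3 and 9.78 to 11.1 CPM in the other 4. In 8 members the transcript ends sooner after the stop codon, and the 3 tested, H1-4, H2BC13 and H4C11, all had a lower mean in number 3, with a median of -0.78. These rest on few reads: the number 3 counts (B2, then DMSO) were 4 and 0 for H1-4, 8 and 15 for H2BC13 and 12 and 17 for H4C11. H4C11 shares 100% of its coding bases with H4C12, which has a coding-only model, so its counts cannot be assigned with certainty. The class of 8 summed to 0.479 and 0.605 CPM in number 3 and to 0.753 to 1.43 CPM elsewhere. Another 32 members have a model of the coding region only, among them H2BC12. Of the 6 tested, 2 had both number 3 values above the other 4, beside 12.3% of all tested genes. Their median difference was 0.33. Summed over all 32, the level was 27.2 and 27.1 CPM in number 3 and 10.9 to 14.3 CPM in the other 4. With H2BC12 left out, the class summed to 8.68 and 8.41 CPM in number 3 and to 6.96 to 9.60 CPM in the other 4, which overlap. The gap in this class thus rests on H2BC12. These classes rest on GENCODE 29, and the models the authors counted on may differ from it. RefSeq (GRCh38.p14) would divide the tested members otherwise. In the class with the longer end, H2AC6, H2AC11, H2AC25, H2BC11, H2BC15, H3C10, H3C14, H3C15, H4C8, H4C9 and H4C14 span 396 to 542 bases there. H2BC4, H2BC5, H2BC21 and H4C15 span 2224 bases or more, and H2BC12, coding-only in GENCODE 29, spans 8566.

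**Figure D4:**
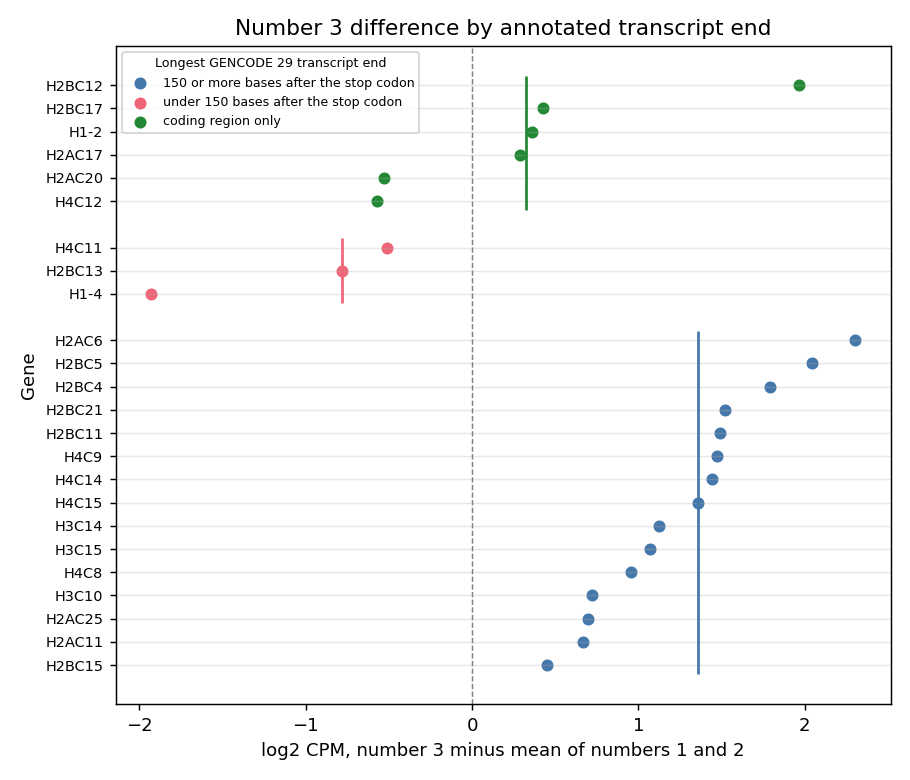
Log2 CPM of number 3 minus the mean of numbers 1 and 2 for each tested member, grouped by its longest annotated transcript end, with a vertical bar at each group's median. All 15 members with the longer end lie right of 0 (0.45 to 2.30), the 3 with the short end lie left of it, and H2BC12 is apart from the other coding-only members.

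H2A and H2B genes often sit head to head and share the sequence between their starts. By GENCODE gene edges, with a limit of 500 bases, there were 11 such pairs with starts 218 to 330 bases apart. For H2AC12, H2BC12 and H2AC20 that edge is the start codon. RefSeq starts (27147106 and 27146858 for H2AC12 and H2BC12, 149886918 and 149886682 for H2AC20 and H2BC21) lie closer together than the distances below. H2AC15 and H2BC15, with RefSeq starts at 27838375 and 27838569, are absent because GENCODE puts the H2BC15 edge at 27837760. In H2AC6 and H2BC4, 218 bases apart, both genes were higher in number 3, by 4.59-fold and 3.62-fold. In H2AC20 and H2BC21, 322 bases apart, the H2A gene was at 0.632-fold and the H2B gene at 2.86-fold of the other libraries' mean. H2AC12 averaged 0.0603 CPM over the 6 libraries, while its neighbour H2BC12, 330 bases away, averaged 9.40 CPM. Of these 6 genes, H2AC12 was not tested, and H2AC6 and H2BC12 passed the test between numbers. H2AC12 and the pairs were chosen by position, with their values known.

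Genes that serve histone synthesis were read from the same tests. Between B2 and DMSO none of the related genes described here passed. Between numbers none of 28 tested genes of histone message processing and transcription passed. SLBP, which binds the hairpin, had 92.7, 105 and 70.3 CPM under B2 against 72.8, 137 and 62.5 CPM under DMSO, so both number 3 values were the lowest. NPAT, the coactivator of histone gene transcription, gave 3.45, 6.17 and 4.50 CPM, then 2.99, 5.46 and 7.48 CPM, with no such order, and CASP8AP2, a processing factor, ranged from 3.42 to 10.2 CPM. Of 24 tested histone chaperone genes, SUPT16H of the FACT complex was the 1 called between numbers (edgeR adjusted p 0.0413), with its highest level in number 2, and 8 had both number 3 values below the other 4 (12.1% of all genes) and 1, ASF1A, had both above (12.3%).

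S-phase genes were on the whole lower in the libraries where the histone sum was higher. For 28 of 50 both number 3 values were below the other 4 and for 0 above, beside 12.1% and 12.3% of all genes, and the median difference was -0.59 on the log2 scale. Their summed level was 4192 and 4433 CPM in number 3 and 6781 to 7113 CPM in the other 4. Of the 50, MCM10 was the 1 that passed between numbers (edgeR adjusted p 0.0476), with its highest level in number 2. MCM10 and SUPT16H both lost their calls with library totals, with no filter on low counts and without any 1 of the 3 DMSO libraries, where edgeR's adjusted p ranged from 0.0653 to 0.450 and from 0.0543 to 0.686. PCNA, the replication clamp, had 203 and 212 CPM in number 3 and 212 to 449 CPM elsewhere, so that the ranges nearly touch, and CCNE2, the cyclin of S-phase entry, ranged from 5.84 to 8.72 CPM with no gap. RNAs that normally lack a poly(A) tail drew few reads in every library, though more in number 3. Of 27 listed, 6 were at 0 in all libraries and 4 were tested. The 27 summed to 11.9 and 6.63 CPM in number 3 and 3.68 to 5.34 CPM in the other 4, and RN7SL1 alone had 7.41 and 3.61 CPM in number 3 and 1.57 to 2.67 CPM elsewhere. Whether the monocyte and macrophage markers, the S-phase genes or these RNAs have a part in the histone difference was not tested.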

How the data were processed

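The values deposited by the authors are estimated counts per Ensembl gene in the 6 libraries, with no normalization. Reads were aligned with HISAT2 2.0.4, as the submitters' processing notes state. How reads were counted, on which build and annotation and with what strand setting, is not given in the sources used here. All values were whole numbers, so rounding changed nothing. The value 4 occurred 6465 times, against 3144 for 3 and 2022 for 5, so low counts are less exact than their size. The members and lists were chosen with earlier results of these data known. Symbols came from a gene name table (60401 of 60612 identifiers matched), positions, lengths and transcript ends from GENCODE 29 (GRCh38, 58394 matched), which may not be the authors' annotation, and promoters from RefSeq (GRCh38.p14).

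Genes were kept by filterByExpr (minimum count 10, minimum total 15) and scaled by TMM factors of 0.862 to 1.07. Tests were edgeR 4.0.16 under R 4.3.3 (glmQLFit, glmQLFTest) with a threshold of 0.05 after Benjamini-Hochberg adjustment, with treatment alone, or with replicate number and treatment. They were checked on simulated data. Intervals are at 95%. DESeq2 1.42.0, limma-voom (limma 3.58.1), other scalings, other filters, counts divided by 4, a replicate block and each library left out were alternatives. Across genes, deviations from the group mean correlated at 0.21, 0.40 and 0.50 between the B2 and DMSO libraries of numbers 1, 2 and 3, and each of the 6 libraries matched its own number best, so the numbers were taken to pair libraries. The labels give no meaning for a number, so this pairing is read from the data. Named members were, per family, the 3 highest per kilobase, the 2 with the smallest p in each test, and 3 testis forms. Related genes were the 2 with the smallest p per list and test, and 9 chosen by name.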

Additional observations from a re-analysis of the deposited data

How the results depend on the processing

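No alternative called a member between B2 and DMSO. Over all genes DESeq2 called 3, the libraries of numbers 1 and 2 with the replicate block called 48, and leaving out each library gave 0 to 1. The replicate block changed no other call: 0 members and 0 genes passed with it. Between replicate numbers, genes called were 956 with RLE factors, 1168 with upper-quartile factors, 266 with library totals, 1346 when low counts were filtered more strictly and 2379 after division of counts by 4, against 461. Members called were 4, 5 and 1 with the 3 scalings and 6 with counts divided by 4. Chosen after seeing the data, DESeq2's likelihood ratio test gave 1686 genes and 4 members, and limma-voom 1278 genes. Leaving out each library gave 388 to 4124 genes and 0 to 6 members, where a number left with 1 library is assumed to vary like the others. The cause was not tested.

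Uncalled log2 fold changes of B2 over DMSO turned sign in some settings, over all 24 tested members. Under limma-voom these were H1-4 at 0.40, H2AC6 at 0.19, H4C12 at 0.12 and H4C14 at -0.10. With the replicate block they were H2AC6 at 0.24, H2BC17 at 0.0073 and H4C12 at 0.0063. Without both libraries of number 3 they were H2AC6 at 0.24, H2BC15 at 0.21, H2BC17 at 0.51 and H4C14 at -0.26, and with the block added H2AC6 at 0.49, H2BC15 at 0.22, H2BC17 at 0.50 and H4C14 at -0.21. Leaving out each library gave H1-4 -1.80 to 0.093, H2AC6 -1.04 to 1.24, H2BC4 -1.33 to 0.56, H2BC5 -0.027 to 2.18, H2BC11 -0.41 to 0.97, H2BC12 -0.76 to 1.20, H2BC13 -0.10 to 0.50, H2BC15 -0.49 to 0.17, H2BC17 -0.34 to 0.42, H2BC21 -0.44 to 0.98, H3C14 -0.91 to 0.39, H3C15 -0.95 to 0.32, H4C9 -0.54 to 0.81, H4C11 -0.68 to 0.25, H4C12 -0.52 to 0.67, H4C14 -0.72 to 0.63 and H4C15 -0.48 to 0.78. Of the 66 members, 24 had enough counts to be tested and 17 had 10 or more counts in every library. Under the stricter filter 6 members were tested, so genes below it have no value there.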
